A study of Homo sapiens with 8 samples.

Results

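The transcripts of the human mitochondrial genome were compared between vehicle-treated and DZNep-treated HEK293T cells. The members were all genes of the count table with a GENCODE symbol that starts with MT-. Of 37 such genes in the annotation (13 protein genes, 2 ribosomal RNA genes and 22 tRNA genes), 35 were among the 57500 genes counted here, namely the 13 protein genes and the 22 tRNA genes. The 2 ribosomal RNA genes were not analysed here. The HEK293T line was derived from human embryonic kidney and expresses the large T antigen of SV40. DZNep, or 3-deazaneplanocin A, resembles adenosine and blocks AHCY, which clears S-adenosylhomocysteine, the by-product and inhibitor of methyltransferases. RNAseq was run on 4 libraries of cells kept for 48 h in 100 µM DZNep and on 4 libraries of cells given vehicle (Control), both in DMEM with serum and antibiotics according to the labels, with replicates numbered 1 to 4 in each group. Both groups are the same unmodified line, the labels do not name the vehicle, and they do not say whether a number marks a separate culture, so that p-values measure the spread between these libraries. Levels are given as counts per 1000000 counts of a library (CPM), with the library total scaled by edgeR's TMM factor, so that CPM are not plain shares of a library. All 8 HEK293T markers examined (VIM, NEFM, NEFL, CDH2, LIN28B, ENO2, KRT8 and KRT18) were expressed in every library. Their summed level was 1067 to 1302 CPM in the Control and 1373 to 1473 CPM in the DZNep libraries. The 8 markers of blood, liver, islet, endothelial and muscle cells summed to 8.45 to 12.1 CPM and 6.35 to 16.2 CPM.

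The mitochondrial genome is a small circle that is transcribed from promoters on both strands into long precursors. The tRNAs lie between most of the protein genes, and their excision by RNase P and ELAC2 releases the messenger RNAs. Most of these messengers then receive a short poly(A) tail from a mitochondrial polymerase. The 13 proteins are core subunits of complexes I, III, IV and V of the respiratory chain, and all other subunits are encoded in the nucleus.

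The genome, given here as chrM of GRCh38, spans 16569 bases. MT-ND6 alone of the protein genes was annotated on the minus strand (the light-strand transcript), while 12 protein genes and 14 tRNA genes were on the plus strand and 8 tRNA genes on the minus strand. Sequences are shown for the genes on which the comparisons below turned, namely the 3 protein genes, and the 2 tRNA genes with a mean of at least 100 counts, whose share of the mitochondrial pool did not overlap between the groups. For the protein genes the first 60 bases are given, with the first codon in capitals, at chrM:4470-4529 for MT-ND2, chrM:5904-5963 for MT-CO1 and chrM:7586-7645 for MT-CO2, all on the plus strand.

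MT-ND2: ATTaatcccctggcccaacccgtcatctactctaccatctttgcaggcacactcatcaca

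MT-CO1: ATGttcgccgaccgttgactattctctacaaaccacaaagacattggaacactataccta

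MT-CO2: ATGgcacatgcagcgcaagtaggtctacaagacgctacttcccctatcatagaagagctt

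MT-ND2 opens with ATT, which mitochondrial ribosomes read as a start codon. The tRNA genes for valine (MT-TV, chrM:1602-1670, plus strand) and asparagine (MT-TN, chrM:5657-5729, minus strand) are given whole, 5′ to 3′ on their own strand, with the anticodon in capitals.

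MT-TV: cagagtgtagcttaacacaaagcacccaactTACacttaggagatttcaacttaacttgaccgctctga

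MT-TN: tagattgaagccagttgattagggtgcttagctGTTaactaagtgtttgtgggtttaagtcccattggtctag

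Some members share bases, which limits how reads can be assigned to them. MT-ATP8 and MT-ATP6 share 46 bases (chrM:8527-8572), in capitals in the window chrM:8520-8579 on the plus strand, and MT-ND4L and MT-ND4 share 7 bases (chrM:10760-10766).

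MT-ATP8 and MT-ATP6: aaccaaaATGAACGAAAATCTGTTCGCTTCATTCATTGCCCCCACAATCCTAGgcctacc

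Library totals ranged from 25043058 to 44902779 counts, and Control replicate 1 was the shallowest. A gene is named called where edgeR's quasi-likelihood test gave an adjusted p-value under 0.05 with a log2 fold change beyond 1 in size. Of the 19171 genes tested, 24.2% were called, 10.6% higher and 13.5% lower with DZNep.

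The mitochondrial share of the library was not distinguishable between the groups, and it varied more between replicate numbers than between treatments. MT- genes took 7.76%, 3.02%, 3.16% and 13.7% of the counts in Control replicates 1 to 4 and 7.04%, 4.25%, 4.44% and 10.1% in DZNep replicates 1 to 4. Replicate 4 was the highest and replicate 2 the lowest in both groups, and the groups overlapped. The mean was 6.90% ± 5.01 in the Control and 6.45% ± 2.74 with DZNep (SD, n = 4 each). The highest Control library held 4.52 times the share of the lowest, against 2.37 times among the DZNep libraries. The mean log2 share differed by 0.10 (exact permutation test, two-sided, p = 0.886, adjusted over 3 shares 0.971). Within replicate numbers the log2 ratio of DZNep to Control was -0.14, 0.49, 0.49 and -0.44, so that the share was higher with DZNep in 2 numbers and lower in 2. Leaving out 1 library moved the mean difference to between -0.20 and 0.53. Counting error was small beside this spread, since the 95% exact binomial interval of a library's share was at most 0.0105 percentage points to either side. In bulk RNA a share cannot tell apart a change of mitochondrial RNA per cell from a change of nuclear RNA per cell.

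By class, nearly all of these counts came from the protein genes. They took 6.85% ± 4.98 of the Control and 6.41% ± 2.72 with DZNep (SD, n = 4 each), a log2 difference of 0.10 (exact permutation p = 0.886, adjusted 0.971). The tRNA genes took 0.0627%, 0.0206%, 0.0248% and 0.0975% of the Control libraries and 0.0453%, 0.0324%, 0.0304% and 0.0650% of the DZNep libraries. Replicate 4 was again the highest in each group and the groups overlapped (log2 difference -0.03, exact permutation p = 0.971, adjusted 0.971). Relative to the summed counts of the nuclear genes for subunits of complexes I, III, IV and V, the protein genes stood at 5.96, 2.91, 3.13 and 10.0 in the Control and at 6.19, 4.30, 4.57 and 7.61 with DZNep. This ratio, too, was ordered by replicate number and overlapped between the groups, with a mean log2 difference of 0.19 (exact permutation p = 0.657, adjusted over 3 ratios 0.657).

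**Figure D1:**
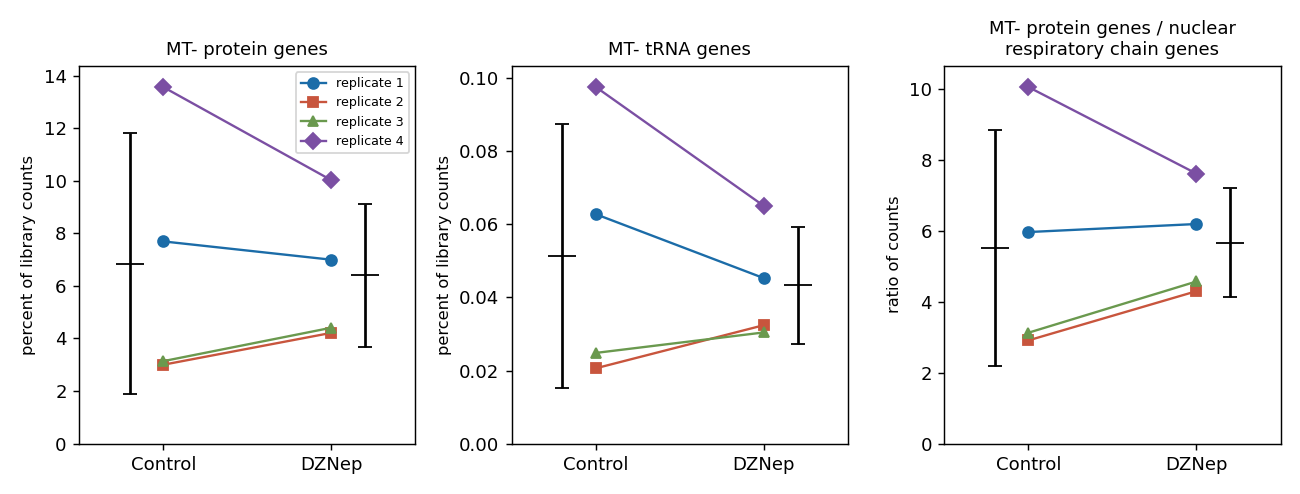
Counts of the 13 MT- protein genes and of the 22 MT- tRNA genes as a percent of the library, and the ratio of MT- protein gene counts to counts of nuclear respiratory chain genes, in 4 Control and 4 DZNep libraries. Lines join libraries of the same replicate number and black bars show the mean ± SD; replicates 2 and 3 went up and replicate 4 went down in all 3 panels, while the groups overlapped.

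None of the mitochondrial genes was called, against 24.2% of all genes. Of the 35 members, 33 passed edgeR's expression filter (13 protein genes and 20 tRNA genes; MT-TD and MT-TR, at 10 counts or fewer in each library, did not). An adjusted p-value under 0.05, whatever the fold change, was reached by 40.8% of all genes with edgeR, and by 0 of these 33 with edgeR, 0 with DESeq2 and 0 with limma, and 0 had an unadjusted edgeR p-value under 0.05. In normalised CPM, 38.8% of all genes tested had groups that did not overlap (18.6% higher and 20.2% lower), against 0 of the 33 members. The edgeR log2 fold changes ran from -0.92 to 1.01 with a median of -0.20, beside a median of -0.03 over all genes tested, and their standard errors from 0.40 to 0.82. They were below 0 for 24 members and above 0 for 9. The sign depended on the measure, as the mean log2 share above was higher with DZNep by 0.10, and with library sizes alone as the scaling the medians were -0.08 for the members and 0.05 for all genes.

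The genes for complex I subunits showed the common pattern. MT-ND1, a core membrane subunit, stood at 3512, 1045, 1088 and 6311 CPM in Control replicates 1 to 4 and at 2683, 1814, 1325 and 4535 CPM in the DZNep libraries. MT-ND2, another membrane subunit, stood at 4237, 1178, 1290 and 7858 CPM in the Control and at 4901, 2258, 2725 and 6990 CPM with DZNep. In both genes replicate 4 was highest and replicates 2 and 3 lowest in either group. MT-ND3 had 838, 263, 268 and 1535 CPM in the Control and 655, 451, 350 and 1284 CPM with DZNep. MT-ND4L had 1057, 626, 542 and 2338 CPM in the Control and 1252, 967, 817 and 1731 CPM with DZNep. The groups overlapped for both of these subunits, and the DZNep libraries spanned the narrower range. MT-ND4, one of the proton-pumping subunits, had 9073, 3050, 3285 and 17306 CPM in the Control and 7761, 3862, 4496 and 11393 CPM with DZNep. MT-ND5, also a proton-pumping subunit, had 5172, 2090, 2108 and 11567 CPM in the Control and 4592, 3182, 2918 and 7327 CPM with DZNep. MT-ND6 had 3086, 816, 887 and 5658 CPM in the Control and 2116, 1121, 1166 and 3323 CPM with DZNep. All 3 had their lowest value in a Control library and their highest in another Control library. By edgeR the log2 fold changes of these 7 genes lay between -0.44 (MT-ND6, SE 0.61) and 0.21 (MT-ND2, SE 0.60, adjusted p = 0.803).

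For the remaining protein genes the groups overlapped as well. MT-CYB, cytochrome b and the one mitochondrially encoded subunit of complex III, had 5939, 2002, 2064 and 11294 CPM in the Control and 5316, 2885, 3064 and 7742 CPM with DZNep (log2 fold change -0.16, SE 0.56). MT-CO1, the catalytic subunit of complex IV, was the most abundant, with 23616, 9082, 9418 and 49433 CPM in the Control and 19795, 11637, 11686 and 30933 CPM with DZNep (-0.31, SE 0.56). Replicate 4 was the highest library of each group in these 2 genes, as in the complex I genes. MT-CO2, the subunit that takes electrons from cytochrome c, had 6988, 2412, 2594 and 13649 CPM in the Control and 5217, 2891, 2869 and 7806 CPM with DZNep, and its log2 fold change of -0.45 (SE 0.56, edgeR adjusted p = 0.556) was the lowest of the protein genes. MT-CO3, the remaining mitochondrial subunit of complex IV, had 6692, 3124, 2776 and 13954 CPM in the Control and 6986, 3861, 4483 and 9803 CPM with DZNep (-0.08, SE 0.51). In none of them were the groups apart. Of the ATP synthase (complex V) genes, MT-ATP8 had 1326, 645, 546 and 3166 CPM in the Control and 1295, 980, 742 and 2324 CPM with DZNep. MT-ATP6 had 7478, 3064, 2871 and 15836 CPM in the Control and 6579, 3913, 3397 and 10880 CPM with DZNep. Both overlapped between the groups and share the bases shown above.

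Within a replicate number the 13 protein genes moved together. In replicates 2 and 3 all 13 had a higher CPM in the DZNep library, with a median log2 ratio of 0.53 and 0.44, while in replicate 4 all 13 had a lower CPM, with a median of -0.54. In replicate 1, 3 were higher and 10 lower, with a median of -0.18. With 1 library per group and number, numbers were not tested against each other. With the replicate number as a block, edgeR's standard errors of the protein genes fell to between 0.15 and 0.18, and 59.0% of all genes passed an adjusted p-value under 0.05 (28.8% higher and 30.2% lower), as did 3 of the 33 members (2 higher and 1 lower). MT-ND2 was higher (log2 fold change 0.52, SE 0.18, adjusted p = 0.0204), as was the tRNA gene MT-TA (0.83, SE 0.35, adjusted p = 0.0498), and MT-TL2 was lower (-0.56, SE 0.23, adjusted p = 0.0453), and none of these 3 passed the fold change threshold.

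**Figure D2:**
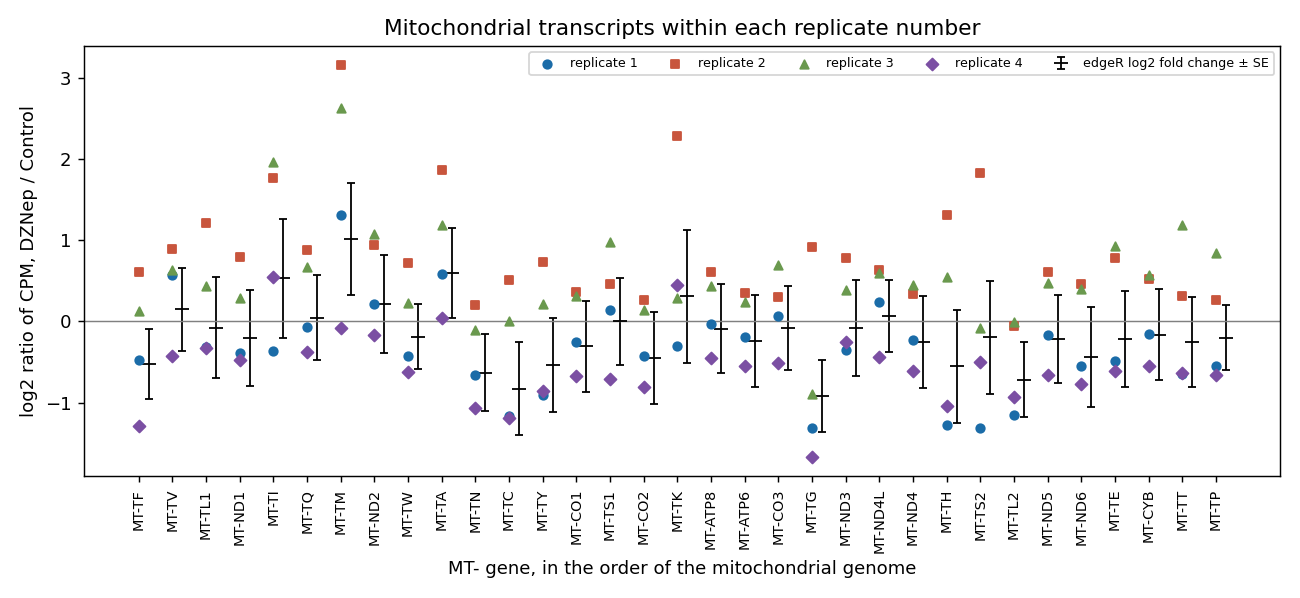
Log2 ratio of CPM in the DZNep over the Control library of the same replicate number (coloured symbols) and edgeR log2 fold change ± SE (black) for the 33 MT- genes tested, in the order of the genome. All 13 protein genes lie above 0 in replicates 2 and 3 and below 0 in replicate 4.

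To compare members without the share of the whole pool, each gene was taken as a percent of the summed counts of the 13 protein genes in its library, a scale added after the values had been seen. On it, 9.87% of all genes tested had groups that did not overlap (4.80% higher and 5.08% lower with DZNep), and 1 protein gene was higher and 2 were lower. The 9.87% is not a like baseline, since nuclear genes on this scale carry the spread of the mitochondrial share, which the members do not. In normalised CPM the percent over all genes was 38.8%. MT-ND2 made up 5.36%, 4.01%, 4.34% and 4.91% of the protein gene counts in the Control and 7.09%, 5.67%, 6.81% and 6.59% with DZNep. Every DZNep library thus lay above every Control library. The means were 4.66% ± 0.602 and 6.54% ± 0.613 (SD, n = 4 each), a log2 difference of 0.49 (exact permutation test, two-sided, p = 0.0286, the smallest that 4 against 4 allows). Groups of 4 that do not overlap always give this exact permutation p-value, so it only restates the separation, here and for the members below. No exact permutation p-value of a single member's share was adjusted over the members examined. The log2 ratio was 0.40, 0.50, 0.65 and 0.42 in replicates 1 to 4, with a paired exact p-value of 0.125, the smallest that 4 pairs allow. With the summed MT- protein counts as the library size, edgeR, adjusted over all genes tested, did not call it (0.49, adjusted p = 0.700; 0.169 with the replicate block).

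MT-CO2 moved the other way. It made up 8.84%, 8.21%, 8.72% and 8.54% of the protein gene counts in the Control and 7.54%, 7.26%, 7.17% and 7.36% with DZNep. The groups were apart, with means of 8.58% ± 0.279 and 7.33% ± 0.162 (SD, n = 4 each; log2 difference -0.23, exact permutation p = 0.0286, paired 0.125). MT-CO1 made up 29.9%, 30.9%, 31.7% and 30.9% in the Control and 28.6%, 29.2%, 29.2% and 29.2% with DZNep, a small shift in which the groups were again apart (30.8% ± 0.731 against 29.0% ± 0.283, SD, n = 4 each; log2 difference -0.09, exact permutation p = 0.0286, paired 0.125). With the summed MT- protein counts as the library size, edgeR called neither MT-CO2 (adjusted p = 0.916; 0.564 with the replicate block) nor MT-CO1 (0.972; 0.819). The MT-CO1 shares had 95% exact binomial intervals of at most 0.0819 percentage points to either side. For the 10 other protein genes the groups overlapped, with log2 differences of -0.14 to 0.24 and exact permutation p-values of 0.114 to 0.771. Of all 13, 6 moved in 1 direction in all 4 replicate numbers, namely MT-ND2, MT-ATP8, MT-ND4L and MT-CYB upward and MT-CO1 and MT-CO2 downward. Shares of a sum are tied to each other, and with MT-CO1 left out of the sum the log2 difference was 0.46 for MT-ND2 and -0.26 for MT-CO2.

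**Figure D3:**
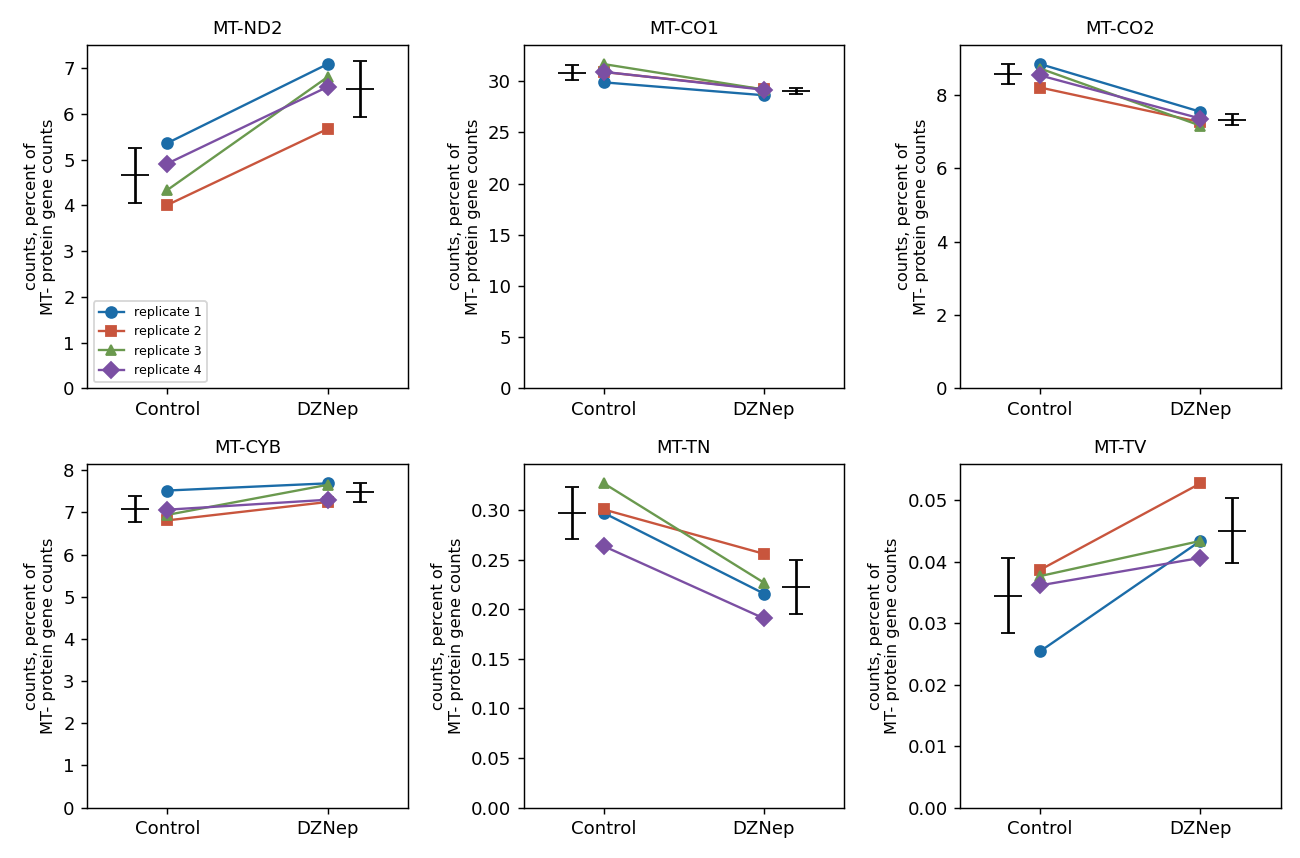
Counts of MT-ND2, MT-CO1, MT-CO2, MT-CYB, MT-TN and MT-TV as a percent of the summed counts of the 13 MT- protein genes, in 4 Control and 4 DZNep libraries, with lines joining libraries of the same replicate number and black bars for the mean ± SD. MT-ND2 and MT-TV are higher and MT-CO1, MT-CO2 and MT-TN lower in every DZNep library than in every Control library, while MT-CYB overlaps. For MT-TN and MT-TV the exact binomial intervals of the nearest libraries of the groups overlap.

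A ratio of 2 members needs no sum. This pair was chosen after its values were seen, so no test is given. MT-ND2 stood at 0.606, 0.489, 0.497 and 0.576 counts per count of MT-CO2 in the Control and at 0.939, 0.781, 0.95 and 0.896 with DZNep. The ratio was 1.65-fold higher with DZNep (log2 difference 0.72), with log2 ratios of 0.63, 0.68, 0.93 and 0.64 in replicates 1 to 4, and the log2 difference lay between 0.67 and 0.78 with any 1 library left out. Against MT-CO1, MT-ND2 was higher by 0.58 on the log2 scale.

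Nuclear copies of mitochondrial genes can share reads with the members. MTND2P28 (chr1:629640-630683) was 98.2% identical to MT-ND2 with 19 differing positions, and MTCO1P12 was 98.6% identical to MT-CO1 with 21, so the assignment of reads between each copy and its member is uncertain. MTND2P28 had 10.5, 4.72, 4.34 and 18.8 CPM in the Control and 12.8, 8.14, 9.49 and 17.5 CPM with DZNep, far below MT-ND2. Counts of MTND2P28 relative to MTCO1P12 were 0.240, 0.296, 0.273 and 0.199 in the Control and 0.343, 0.275, 0.435 and 0.309 with DZNep, so that the groups overlapped and 3 of 4 replicate numbers were higher with DZNep (log2 difference 0.43). Of 399 such copies by symbol, 10 were tested and 0 were called (by edgeR, 0 had an unadjusted p-value under 0.05; with the replicate block MTND2P28 had 0.51, adjusted p = 0.0244), with a summed level of 120 to 509 CPM in the Control and 155 to 401 CPM in the DZNep libraries. Of all genes tested, 24.2% were called and 40.8% had an adjusted edgeR p-value under 0.05.

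MT-ND6, the light-strand messenger, was compared with the sum of the 12 heavy-strand protein genes. The ratio was 0.0406, 0.0285, 0.0307 and 0.0367 in the Control and 0.0316, 0.0290, 0.0300 and 0.0323 with DZNep. The DZNep values lay within the Control range and closer together (log2 difference -0.14, exact permutation p = 0.343, adjusted over 3 ratios 0.514). The counting of reads by strand is not given in the sources used here, so reads of MT-ND6 and of antisense RNA from the other strand cannot be told apart.

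Per kilobase of gene, the protein genes kept a similar order in all libraries. MT-CO1 held 17.7% of the summed counts per kilobase on average over the 8 libraries and was above MT-ATP6, the next gene, in 8 of 8. MT-ATP6 was above MT-CO3 in 7 of 8, MT-CO3 above MT-CO2 in 5, MT-CO2 above MT-ATP8 in 7 and MT-ATP8 above MT-ND4 in 7. MT-ND4 stood above MT-CYB in 8 of 8, while MT-CYB, MT-ND4L, MT-ND6 and MT-ND2 were not ordered among neighbours, with 4, 5 and 4 of 8 libraries in the stated direction. MT-ND2 was above MT-ND1 in 8 of 8, MT-ND1 above MT-ND5 in 5 and MT-ND5 above MT-ND3 in 8, and MT-ND3 was the lowest with 2.62%. The complex IV and V genes thus held the 5 highest places and the complex I genes 7 of the 8 lower ones.

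The tRNA genes held few counts. They are 59 to 75 bases long, whereas the reads were 150 bases, and 13 of the 22 averaged under 100 counts per library. The 5 with the most counts were MT-TN (asparagine), MT-TL1 (leucine), MT-TC (cysteine), MT-TY (tyrosine) and MT-TP (proline), which took 84.8% to 90.5% of the tRNA counts of a library. MT-TN had 235, 88.3, 97.2 and 421 CPM in the Control and 149, 102, 90.8 and 202 CPM with DZNep. MT-TL1 had 199, 40.03, 56.1 and 323 CPM in the Control and 160, 92.5, 76.1 and 259 CPM with DZNep. In both genes replicate 4 was at the top of each group, as in the protein genes. MT-TC had 61.7, 14.2, 18.9 and 106 CPM in the Control and 27.7, 20.3, 18.9 and 46.3 CPM with DZNep. MT-TY, whose gene shares 1 base with MT-TC, had 49.7, 14.4, 16.4 and 99.3 CPM in the Control and 26.5, 23.8, 19.0 and 54.8 CPM with DZNep. MT-TP had 38.5, 17.6, 18.3 and 65.2 CPM in the Control and 26.3, 21.2, 32.6 and 41.4 CPM with DZNep. The groups overlapped for all 5, with edgeR log2 fold changes of -0.82 (MT-TC, SE 0.58) to -0.08 (MT-TL1, SE 0.62). The lowest and the highest log2 fold change among the tRNA genes tested belonged to genes with few counts. MT-TG, glycine, had -0.92 (SE 0.44, adjusted p = 0.124) at 15 to 61 counts, and MT-TM, methionine, had 1.01 (SE 0.69, adjusted p = 0.268) at 1 to 17 counts. Summed tRNA counts were 0.00753 ± 0.000602 of the protein gene counts in the Control and 0.00689 ± 0.000572 with DZNep (SD, n = 4 each), a log2 difference of -0.13 (exact permutation p = 0.200, adjusted over 3 ratios 0.514).

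On the scale of the protein gene counts, 2 of the 9 tRNA genes that averaged at least 100 counts had groups that did not overlap. Over all genes tested the percent was 9.87% on this scale, which is not a like baseline, and 38.8% in normalised CPM. MT-TN was at 0.297%, 0.301%, 0.327% and 0.264% in the Control and at 0.216%, 0.256%, 0.227% and 0.191% with DZNep, lower in each of the 4 numbers (log2 difference -0.42, exact permutation p = 0.0286, paired 0.125; edgeR on this scale, adjusted p = 0.886, and 0.363 with the replicate block). MT-TV was at 0.0254%, 0.0387%, 0.0377% and 0.0362% in the Control and at 0.0434%, 0.0527%, 0.0434% and 0.0406% with DZNep, higher in each of the 4 numbers (log2 difference 0.40, exact permutation p = 0.0286, paired 0.125). By edgeR on this scale MT-TV did not reach an adjusted p-value under 0.05, without or with the replicate block. For both genes the nearest libraries of the groups were not apart beyond counting error, by the exact binomial intervals used for MT-CO1. For MT-TN these ran from 0.259% to 0.268% in Control replicate 4 and from 0.249% to 0.263% in DZNep replicate 2. For MT-TV they ran from 0.0353% to 0.0423% in Control replicate 2 and from 0.0386% to 0.0427% in DZNep replicate 4. For the other 7 tRNA genes the shares of the groups overlapped, though MT-TL2 was lower in all 4 numbers (log2 difference -0.56). Of the scarcer tRNA genes MT-TM had shares that did not overlap either, at most 0.00027% in the Control and at least 0.00039% with DZNep. These shares rested on 4, 1, 2 and 15 counts in the Control and 17, 10, 13 and 14 counts with DZNep. The counts themselves overlapped between the groups, as did the CPM of MT-TM. Whether the libraries were selected for poly(A) tails is not given in the sources used here. Of 14 nuclear RNAs that lack such a tail, 4 passed the filter (RN7SL2, RN7SL3, SNORD3A and TERC) and all 4 were called higher, where 10.6% of all genes were, with a summed level of all 14 of 27.9 to 49.4 CPM in the Control and 69.6 to 142 CPM in the DZNep libraries. Of these 14, 7 were at 0 counts in every library. The part of library preparation in the tRNA values was not tested.

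**Figure D4:**
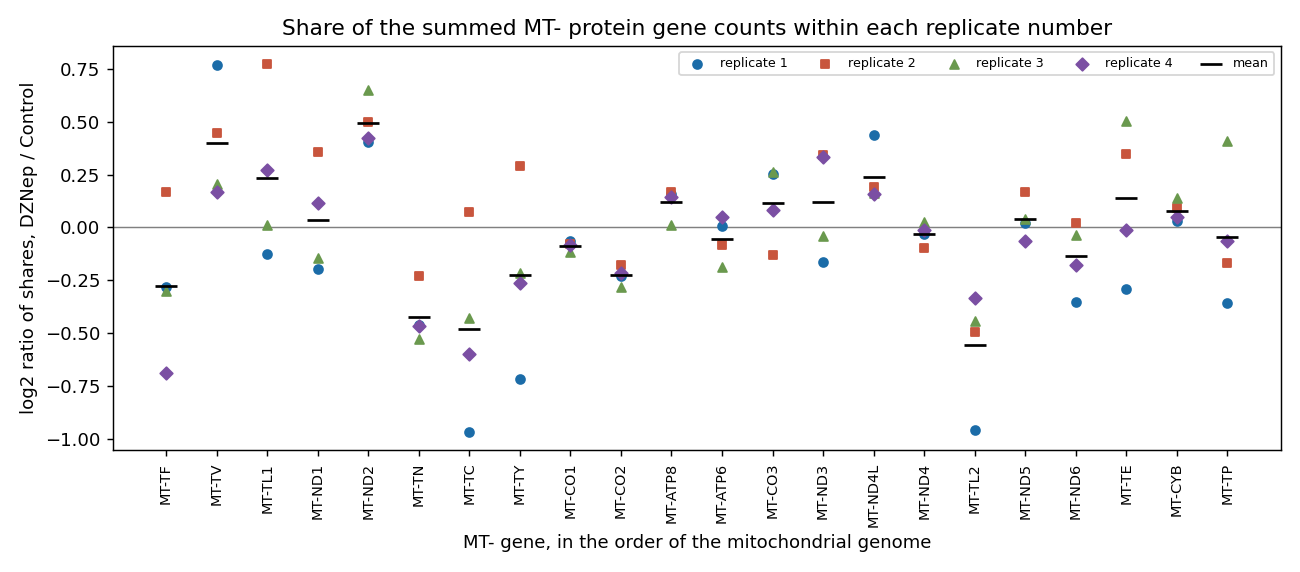
Log2 ratio of the share of the summed MT- protein gene counts, DZNep over Control library of the same replicate number (coloured symbols, black bar for the mean), for 13 protein genes and the 9 tRNA genes with a mean of at least 100 counts. MT-ND2, MT-ATP8, MT-ND4L, MT-CYB and MT-TV lie above 0 and MT-CO1, MT-CO2, MT-TN and MT-TL2 below 0 in all 4 numbers.

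Nuclear genes that maintain, transcribe and process the mitochondrial genome were examined as lists, beside the 10.6% of all genes called higher and 13.5% called lower. Among 16 genes for replication and transcription of mitochondrial DNA, 0 were higher and 1 was lower, with a median log2 fold change of -0.39. The gene that fell was PRIMPOL, a primase-polymerase (19.5 ± 3.59 CPM in the Control and 7.25 ± 0.789 with DZNep, SD, n = 4 each; log2 fold change -1.42, edgeR adjusted p = 0.000183). POLRMT, the mitochondrial RNA polymerase, had a log2 fold change of 0.22 (SE 0.14, adjusted p = 0.221) and TFAM, which packages and bends the DNA at promoters, one of 0.17 (SE 0.18, adjusted p = 0.483). Of the 2 TFB genes, TFB2M, the transcription initiation factor, had 0.38 (adjusted p = 0.337; 0.0371 with the replicate block). TFB1M, a methyltransferase of ribosomal RNA, had -0.43 (adjusted p = 0.0238), under the fold change threshold.

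Among 26 genes for processing, stability and decay of mitochondrial RNA, 1 was higher and 1 was lower, with a median of 0.00. FASTKD5, which is needed for maturation of messengers that tRNAs do not flank, rose from 21.5 ± 2.42 to 62.6 ± 10.1 CPM (SD, n = 4 each; log2 fold change 1.54, edgeR adjusted p = 7.16e-05), and every DZNep library lay above every Control library. FASTK, which is needed for MT-ND6 RNA, fell from 63.0 ± 13.3 to 31.4 ± 5.18 CPM (SD, n = 4 each; -1.002, edgeR adjusted p = 0.00198). Of the tRNA excision enzymes, TRMT10C, a subunit of RNase P, had 0.44 (edgeR adjusted p = 0.0598; 0.00372 with the replicate block) and ELAC2, the 3′ endonuclease, had -0.07 (adjusted p = 0.742). LRPPRC and SLIRP, which bind each other and hold messengers stable, had -0.28 (adjusted p = 0.429) and -0.56 (adjusted p = 0.260; 0.0104 with the replicate block). Of the degradosome, PNPT1, the nuclease, had -0.52 (adjusted p = 0.0124) and SUPV3L1, the helicase, 0.10 (adjusted p = 0.626), neither past the fold change threshold.

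Of 15 methyltransferase genes that act on mitochondrial RNA, 0 were higher and 3 were lower, with a median of -0.11. TRMT61B, which methylates adenosine in tRNA and ribosomal RNA, fell from 18.8 ± 4.24 to 5.78 ± 0.404 CPM (SD, n = 4 each; log2 fold change -1.70, edgeR adjusted p = 0.000104). METTL8, which methylates cytidine in the anticodon loop of tRNAs, fell from 33.6 ± 2.78 to 14.3 ± 1.37 CPM (SD, n = 4 each; -1.23, edgeR adjusted p = 0.000103), and TRMT2B, a uridine methyltransferase, had -1.14 (edgeR adjusted p = 0.000393). Of 13 other RNA modification genes, 1 was higher (TRUB2, a pseudouridine synthase, 1.39) and 1 lower (OSGEPL1, which makes threonylcarbamoyladenosine, -1.09), with a median of -0.20. Of 16 translation factor genes, 1 was higher (MTRF1L, a release factor, 1.22) and 4 were lower, with a median of -0.33. The 3 of these with the lowest values were MTRFR, a ribosome rescue factor (-1.66), MTFMT, which formylates the initiator tRNA (-1.59), and MTRES1 (-1.47). The fourth, TACO1, a translational activator of MT-CO1, had -1.04 and is named beyond the rule because it acts on a member.

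The nuclear partners of the mitochondrial subunits mostly did not pass the thresholds. Of 37 complex I genes, 0 were higher and 2 were lower (NDUFV3, -2.22, and NDUFS8, -1.12), with a median of -0.29. Of 9 complex III genes and 11 complex IV genes, 0 were called in either direction by edgeR at both thresholds. At an unadjusted edgeR p-value under 0.05, 2 complex III genes were higher and 1 lower, and 0 complex IV genes were either. Over all genes tested, 40.8% passed 0.05 even after adjustment. The median log2 fold changes of the complex III and IV genes were -0.07 and -0.27. Of 18 complex V genes, 1 was lower (ATP5PD, a peripheral stalk subunit, -1.59), with a median of -0.32. At an adjusted p-value under 0.05, whatever the fold change, 21.8% of all genes were lower. Of the nuclear partners, 5 complex I genes, 0 complex III genes, 0 complex IV genes and 2 complex V genes were. With the replicate block 16, 2, 3 and 9 were lower, where 30.2% of all genes were. In the other direction 0, 2, 0 and 0 were higher, where 19.1% of all genes were. With the block 4, 2, 0 and 1 were higher, where 28.8% of all genes were. The summed level of the complex IV genes was 2835, 1658, 1752 and 3187 CPM in the Control and 2165, 1752, 1756 and 2917 CPM with DZNep. Replicate 4 was the highest library of each group for complex IV, while for complexes III and V replicate 1 was the highest Control library (1679 and 4223 CPM, against 1675 and 4181 CPM in replicate 4).

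Of 18 genes listed for the mitochondrial stress response and its ATF4 arm, 1 was higher (FGF21, a secreted hormone, 2.31) and 3 were lower, with a median of -0.49. Those were PCK2, mitochondrial phosphoenolpyruvate carboxykinase (-2.80), DDIT3, a stress-induced transcription factor (-2.61), and TRIB3, a pseudokinase induced with it (-1.76). At an adjusted edgeR p-value under 0.05, whatever the fold change, 1 was higher and 6 were lower (19.1% and 21.8% of all genes). With the replicate block 2 were higher and 11 lower (28.8% and 30.2% of all genes). The summed level of the 18 genes was 7147 to 8171 CPM in the Control and 5037 to 6485 CPM in the DZNep libraries. Of 9 regulators of mitochondrial biogenesis, 0 were higher and 1 was lower, the nuclear receptor ESRRA (-1.09), with a median of -0.20.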

How the data were processed

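RNAseq of 8 HEK293T libraries (4 Control, 4 DZNep, grouped by their labels) was used. Per the labels and the study's methods, the authors used Trimmomatic 0.36 to trim paired 150 base reads, STAR 2.5.2b for alignment to GRCh38 and featureCounts (Subread 1.5.2) to count uniquely placed exonic reads. The deposited counts (57500 genes) were not normalized. The second deposited table is a signal, each count divided by 1 size factor per library, for 19118 genes (32 MT- genes). Annotation release, library type and strandedness are not given in the sources used here. The methods name RPMI and the labels DMEM.

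Symbols (GENCODE) matched 56410 identifiers. The main test was edgeR 4.0.16 (R 4.3.3; TMM, filterByExpr, quasi-likelihood, Benjamini-Hochberg, adjusted p under 0.05 and absolute log2 fold change over 1), tested on simulated data. Standard errors (SE) of edgeR fits were derived as the absolute log2 fold change over the square root of the quasi-likelihood F statistic. CPM use TMM library sizes. Shares and ratios were tested with exact permutation tests (SciPy 1.17.1), for which 4 against 4 libraries cannot go below 0.0286. Intervals and floors cover counting error only. Libraries of a group differed beyond sampling noise (chi-square per degree of freedom at least 23.9), so each counted once. As a pairing check, the deviations of same-numbered libraries from their group means were correlated (0.14, 0.49, 0.43 and 0.67), all above 0.1. Each DZNep library correlated best with the Control library of its own number. Control replicates 2, 3 and 4 likewise matched their own number best, but Control replicate 1 did not. The replicate number was treated as a pair in the replicate block and the paired exact tests, so the pairing of replicate 1 is uncertain there. Alternatives were DESeq2 1.42.0, limma 3.58.1 on log2(normalized count + 1) or + 0.5, other scalings and filters, the replicate block, and leaving out each library. Genes named are the MT- protein genes, the 5 tRNA genes with the most counts, up to 3 called genes per list and direction, and 10 fixed factors; any further gene was chosen with its values in view. Members and lists were chosen with earlier results of these data known.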

Additional observations from a re-analysis of the deposited data

Results flagged for a closer look

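In 62 groups of 4 values (members' shares of the mitochondrial protein gene counts, class shares and ratios), Dixon's test set 2 values apart, where chance sets about 1 in 20 groups apart. MT-CO1 made up 28.6% of the protein gene counts in DZNep replicate 1, below the 29.2% of each of the other 3 DZNep libraries, which lay close together. MT-TL2 made up 0.00487% in Control replicate 4, below the other 3 Control libraries.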

How the results depend on the processing

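Of the 22 tRNA genes, 13 averaged under 100 counts a library, and 2 of them were not tested. Alternatives and results that need the ribosomal RNA genes were not run. Settings that moved a count were few. With MT- protein gene counts as library size, 636 genes of all tested were called higher and 705 lower, and 0 genes of the nuclear lists were higher and 3 lower (4 and 17 in the reported fit). With at least 10 reads in every library, 1141 of all genes were higher. With the replicate block, 2 MT- genes were higher and 1 lower at an adjusted p-value under 0.05. With MT- protein gene counts as library size and the block, MT-TM alone passed, with 1 MT- gene called higher (1.40, adjusted p = 0.0450). The block changed no other call of a mitochondrial gene. Paired exact tests of 4 pairs cannot go below 0.125, so they could not pass for any share or ratio, and the 5 shares at p = 0.0286 named in the report stood at 0.125.

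Leaving out Control replicate 4, the library with the highest mitochondrial share, called MT-TM (2.21, edgeR adjusted p = 0.0182) and MT-TA (1.42, adjusted p = 0.0256) higher and gave MT-TV an adjusted p of 0.0428 (0.96). Leaving out Control replicate 2 called MT-TG lower (-1.22, adjusted p = 0.0178). With 1 library left out, 0 to 2 MT- genes were called higher and 0 to 1 lower, 0 to 3 and 0 to 1 at the adjusted p-value alone.

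Log2 fold changes near 0 changed sign. With the replicate block the values were 0.052 for MT-ND1, 0.14 for MT-ATP8, MT-CO3 and MT-ND3, 0.063 for MT-ND5, 0.10 for MT-CYB and 0.24 for MT-TL1. With limma, at either pseudocount and either set of genes, they were 0.081 for MT-ND1, 0.17 for MT-ATP8 and MT-ND3, 0.16 for MT-CO3, 0.019 for MT-ND4, 0.089 for MT-ND5, 0.13 for MT-CYB, 0.28 for MT-TL1 and 0.0024 to 0.0025 for MT-TP. With library sizes alone they were 0.040 for MT-ATP8, 0.037 for MT-ND3, 0.051 for MT-CO3 and 0.049 for MT-TL1. With MT- protein gene counts as library size, without and with the block, they were 0.038 and 0.033 for MT-ND1, 0.12 and 0.12 for MT-ATP8, 0.11 and 0.12 for MT-CO3, 0.13 and 0.12 for MT-ND3, 0.043 and 0.041 for MT-ND5, 0.077 and 0.077 for MT-CYB and 0.20 and 0.23 for MT-TL1, and 0.0069 for MT-TP without it. With MT-CO1 left out of the sum, the difference in the share of MT-ND1 was -0.0037, and MT-TL2 reached p = 0.0286 (exact permutation test, log2 difference -0.59). The cause of these changes was not tested.

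With 1 library left out, the log2 fold change lay between -0.62 and 0.45 for MT-ND1, -0.14 and 0.91 for MT-ND2, -0.67 and 0.39 for MT-CO1, -0.80 and 0.22 for MT-CO2, -0.49 and 0.66 for MT-ATP8, -0.65 and 0.46 for MT-ATP6, -0.37 and 0.57 for MT-CO3, -0.57 and 0.58 for MT-ND3, -0.17 and 0.67 for MT-ND4L, -0.60 and 0.41 for MT-ND4, -0.55 and 0.52 for MT-ND5, -0.83 and 0.26 for MT-ND6, -0.50 and 0.50 for MT-CYB, -0.49 and 0.57 for MT-TL1, -0.95 and 0.20 for MT-TY and -0.42 and 0.29 for MT-TP. The log2 difference lay between -0.20 and 0.53 for the MT- share and the protein gene share, -0.37 and 0.38 for the tRNA share and -0.05 and 0.54 for the ratio to nuclear respiratory chain genes. On the scale of the protein gene counts it lay between -0.03 and 0.12 for MT-ND1, -0.09 and 0.0009 for MT-ATP6, -0.05 and 0.02 for MT-ND4, -0.01 and 0.08 for MT-ND5 and -0.28 and 0.09 for MT-TP. It kept its sign for MT-ND2 (0.43 to 0.56), MT-CO1 (-0.10 to -0.07), MT-CO2 (-0.25 to -0.21), MT-TN (-0.49 to -0.35) and MT-TV (0.26 to 0.46), although 4 against 3 libraries cannot go below 0.0571 in the exact test.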
